A study of Saccharomyces cerevisiae BY4741 with 6 samples.

Results

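The *ATG* genes of the budding yeast *Saccharomyces cerevisiae* encode the machinery of autophagy, the process by which a cell encloses part of its own cytoplasm in a double membrane and delivers it to the vacuole, the lytic compartment of yeast, for breakdown. Here they are the genes whose symbol in the array's annotation is *ATG* followed by a number. This rule found 34 of the 5449 genes measured, each with 1 probe set. The current RefSeq table names 37 genes in this way, and the other 3, *ATG42*, *ATG44* and *ATG45*, were not analysed here.

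Autophagy runs at a low level in growing yeast and is switched on when nutrients run short. It is held back by TORC1, a kinase complex that senses nitrogen and amino acids, through phosphorylation of Atg13. The Atg1 kinase complex then starts a membrane sheet, the phagophore, which grows with lipid brought by Atg9 vesicles, carries the lipid phosphatidylinositol 3-phosphate (PI3P) and is decorated with Atg8, a protein of the ubiquitin family that is attached to the lipid phosphatidylethanolamine. Transcription of several *ATG* genes, *ATG8* and *ATG41* among them, is known to rise upon starvation, and the amount of Atg8 is known to affect the size of autophagosomes.

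Transcripts were measured in BY4741, a haploid laboratory strain of mating type a that carries deletion alleles of *HIS3*, *LEU2*, *MET17* (also called *MET15*) and *URA3*, in 3 cultures exposed to neomycin sulfate at 10 mg/mL for 4 h and in 3 untreated cultures, all grown in rich medium (YPD) at 30 °C. Neomycin is an aminoglycoside antibiotic that binds ribosomes and acidic phospholipids. RNA of each culture was read on a separate Affymetrix Yeast Genome 2.0 array (n = 3 arrays per condition). One dose and one time were measured, in rich medium and in a single strain, and no starved culture was included.

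Signals are GCRMA values in log2 units, in which 1 unit is a doubling. A difference is the neomycin mean minus the untreated mean. Signals were normalized between arrays, so that a difference is relative to the other transcripts of the cell, and a change in all transcripts of a part of the cells cannot be told apart from a change within each cell. The arrays correlated with each other at 0.979 to 0.993 across all genes. Over the 100 genes that changed most on the other neomycin arrays, neomycin replicate 1 showed 0.494 of their change at the median, against 0.968 and 1.13 for replicates 2 and 3. Of the genes deleted in the strain, *LEU2*, *MET17* and *URA3* had mean signals of up to 4.68, taken here as the mark of background, and 1 *ATG* gene, *ATG16*, lay under it. Of the genes that mark the mating type, 6 of 6 genes of a cells had values below 0 and 0 were called (0.514% of all genes). On 4 of the 6 the neomycin arrays lay below the untreated arrays without overlap, as on 12.8% of all genes. *AGA2*, which the study lists as repressed, had a ratio of mean signals of 0.518. The array means of the 6 genes were 11.21 to 11.60 with neomycin and 11.76 to 11.99 in untreated cells. The 4 genes of α cells, which should be silent in this strain, also had values below 0. Of these 2 were lower without overlap (12.8% of all genes), and 0 were called (0.514% of all genes). Their array means were 5.40 to 5.53 with neomycin and 5.67 to 6.24 in untreated cells, and only *MF(ALPHA)1* lay under the background mark. *SAG1* was the brightest, at 7.57 to 7.98 with neomycin and 8.07 to 8.59 in untreated cells, so that its signal was well above background.

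Neomycin raised *ATG41* and *ATG8*, and no other *ATG* gene passed the test. *ATG41* (YPL250C, also called *ICY2*) encodes a protein that binds Atg9 and is needed for full autophagy. Its signal was 9.58, 10.14 and 10.03 on the neomycin arrays, against 8.89, 8.36 and 8.09 on the untreated arrays, each in the order of replicates 1, 2 and 3, as throughout. The lowest neomycin array thus lay above the highest untreated array, and the untreated cultures were the more scattered. The mean was 9.92 ± 0.30 with neomycin and 8.45 ± 0.41 in untreated cells (SD, n = 3 each), a ratio of mean signals of 2.74. The difference was 1.47 on the log2 scale (SE 0.22, 95% interval 0.96 to 1.99), with an adjusted p of 0.0421 (limma, Benjamini-Hochberg over 5449 genes). *ATG41* stood in place 9 of the 5449 genes by this difference.

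*ATG8* (YBL078C) encodes the ubiquitin-like protein that coats the growing membrane and binds cargo receptors. It had signals of 8.93, 9.04 and 9.07 on the neomycin arrays, against 7.96, 8.42 and 8.03 on the untreated arrays. The neomycin arrays lay close together and all above the untreated arrays, of which replicate 2 was the highest. The means were 9.01 ± 0.073 with neomycin and 8.14 ± 0.25 in untreated cells (SD, n = 3 each), a ratio of 1.81. The difference was 0.87 (SE 0.14, 95% interval 0.55 to 1.19, limma adjusted p = 0.0481), in place 56 of all genes. With 3 arrays per condition, a 2-sided exact permutation test of a single gene cannot go below p = 0.1.

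Neomycin replicate 1 had the weaker response over the 100 genes that changed most on the other neomycin arrays. On it *ATG41* lay 1.14 above its untreated mean, against 1.7 and 1.59 on replicates 2 and 3. *ATG8* lay 0.79 above its untreated mean on replicate 1, against 0.90 and 0.93. That array thus showed 0.693 of the mean change of the other neomycin arrays for *ATG41* and 0.863 for *ATG8*.

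**Figure D1:**
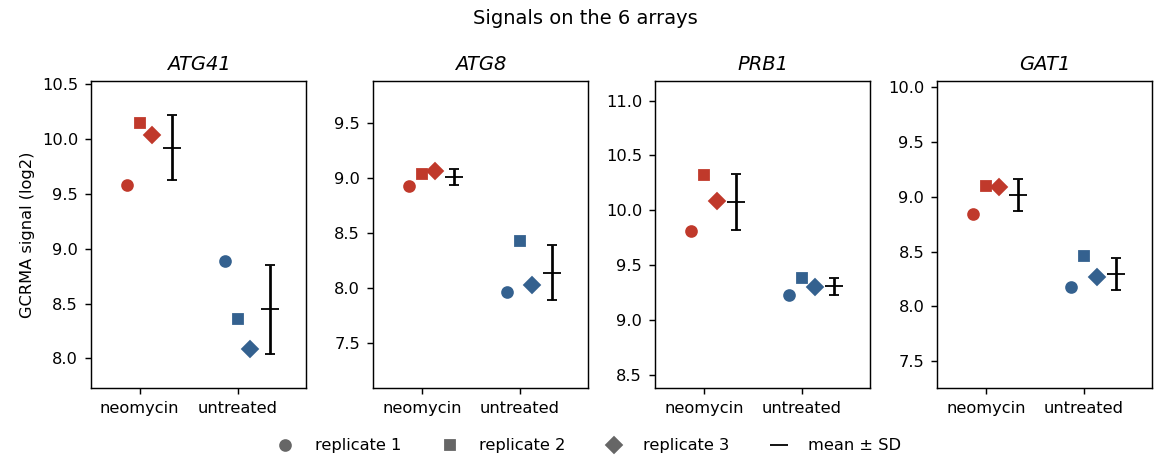
GCRMA signal (log2) of *ATG41*, *ATG8*, the vacuolar protease gene *PRB1* and the regulator gene *GAT1* on each of the 6 arrays, with 1 point per array, the marker shape giving the replicate number, and bars for the mean ± SD (n = 3 arrays). Each panel spans the same range of log2 units, and in each the 3 neomycin arrays lie above the 3 untreated arrays.

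The calls of both genes rest on small margins. With neomycin replicate 1 left out, the difference of *ATG41* was 1.64 (limma adjusted p = 0.0101) and that of *ATG8* 0.91 (limma adjusted p = 0.0289). Leaving out any of the other 5 arrays kept the size of the differences but ended both calls. *ATG41* then had differences of 1.36 and 1.42 without neomycin replicates 2 and 3, and of 1.69, 1.43 and 1.29 without untreated replicates 1, 2 and 3, with limma adjusted p-values of 0.144, 0.181, 0.0810, 0.140 and 0.160 in this order. For *ATG8* the differences were 0.86, 0.85, 0.78, 1.02 and 0.82 in the same order, with limma adjusted p-values of 0.150, 0.190, 0.178, 0.0872 and 0.191. In these 5 fits limma called at most 2 genes of the whole array.

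**Figure D2:**
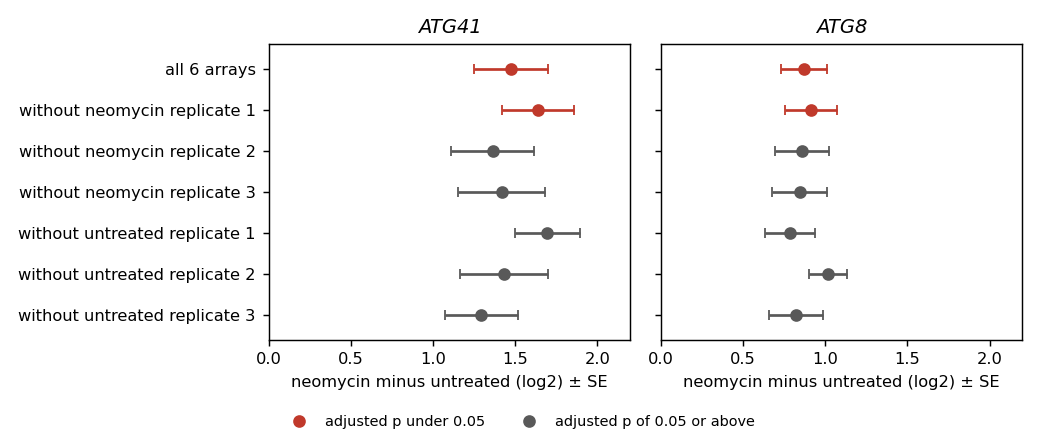
Difference between neomycin and untreated arrays (log2, points) with limma's standard error (bars) for *ATG41* and *ATG8*, with all 6 arrays and with each array left out. Red points have an adjusted p under 0.05, and the differences stay between 1.29 and 1.69 for *ATG41* and between 0.78 and 1.02 for *ATG8*.

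These 2 calls among 34 genes, both higher, compare with 28 of 5449 genes called on the whole array (0.514%), 23 of them higher (0.422%) and 5 lower (0.0918%). By the criteria of the study's methods, a ratio of mean signals of 1.7 or more, or of 0.6 or less, and a Cyber-T p no higher than 0.05, the same 2 *ATG* genes were induced and 0 were repressed, with 79 genes induced (1.45%) and 20 repressed (0.367%) over all genes. These counts come from a Cyber-T rebuilt here with 1 probe set per gene and are not the study's own. The study itself lists *ATG41*, as *ICY2*, and *ATG8* among its induced genes. Without adjustment for the number of genes, 3 of the 34 had a limma p under 0.05, *ATG31* being the one not called, against 729 of all 5449 genes (13.4%).

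Of the 34 genes, 22 had a difference above 0, or 64.7%, while over all genes 37.9% did. Without each array in turn the count above 0 ran from 18 to 28 of 34. The median difference was 0.05 over the *ATG* genes and −0.05 over all genes, and it was 0.03 over the 32 genes other than *ATG41* and *ATG8*. On 4 of the 34, *ATG41*, *ATG8*, *ATG17* and *ATG33*, the neomycin arrays did not overlap the untreated arrays, all of them higher, which is 11.8% of the members. Over all genes 18.4% did not overlap, 5.58% higher and 12.8% lower with neomycin, and 0 *ATG* genes were lower in this way. With quantile normalization *ATG31* was lower without overlap, beside 5 *ATG* genes that were higher. In that setting 18.6% of all genes did not overlap, 8.5% being higher. With each array centred on its median 7 *ATG* genes were higher without overlap, *ATG5*, *ATG32* and *ATG36* being added, where the share of all genes higher in this way was 8.75%.

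For the 32 genes that were not called, the size of change that the arrays allow can be read from the 95% intervals. They reached from −0.77 (*ATG4*) to 1.35 (*ATG29*), and in 31 of the 32 the interval lay within a doubling and a halving of the signal, as it did for 95.7% of all genes. *ATG29* was the exception. The standard errors of these 32 genes ran from 0.092 (*ATG32*) to 0.36 (*ATG29*). Over the 34 genes the median standard error was 0.14, against 0.13 over all genes.

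**Figure D3:**
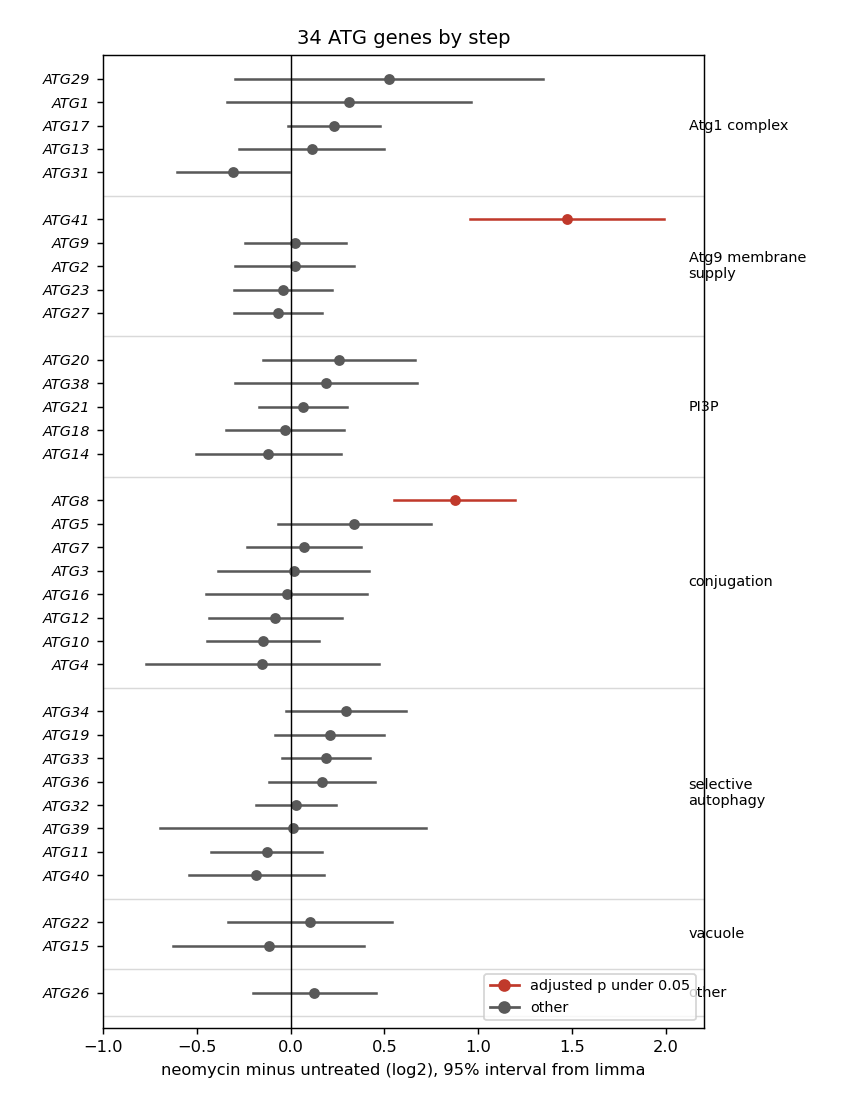
Difference between neomycin and untreated arrays (log2, points) with limma's 95% interval (lines) for the 34 *ATG* genes, grouped by step of autophagy and ordered by difference within a step. *ATG41* and *ATG8*, in red, passed the adjusted test, and the intervals of all other genes but *ATG31*, whose adjusted p was 0.366, include 0.

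The first step is the Atg1 kinase complex, made of the kinase Atg1, its regulator Atg13 and the scaffold of Atg17, Atg29 and Atg31. Of these 5 genes 0 were called and 4 had differences above 0, with a median of 0.23. The median was 0.070 without neomycin replicate 2. Without the 1363 dimmest genes only *ATG13* of this step remained, so that no median of the step could be read. The highest value was that of *ATG29*, with signals of 5.53, 6.23 and 5.15 on the neomycin arrays against 5.72, 5.18 and 4.44 on the untreated arrays. Its arrays overlapped widely and lay close to background (difference 0.52, SE 0.36). *ATG1* had signals of 6.26, 7.27 and 6.78 with neomycin and 6.72, 5.98 and 6.67 in untreated cells, which overlap too (0.31, SE 0.28). *ATG17* had the steadier values, 7.34, 7.49 and 7.38 with neomycin against 7.05, 7.19 and 7.28 without, a difference of 0.23 (SE 0.11, limma adjusted p = 0.40) with no overlap. *ATG13* had a difference of 0.11 (SE 0.17).

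*ATG31* was the lowest of this step and of all 34 genes. Its signals were 7.24, 7.63 and 7.26 on the neomycin arrays and 7.76, 7.67 and 7.63 on the untreated arrays. Neomycin replicate 2 reached the lowest untreated array, and the other neomycin arrays lay under it. The difference was −0.31 (SE 0.13, 95% interval −0.61 to −0.0063) and did not pass (limma adjusted p = 0.366). Atg17, Atg29 and Atg31 act as 1 complex. Their transcripts had differences of 0.23, 0.52 and −0.31, none of them called, and whether the genes differ from each other was not tested.

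Of the 5 genes of membrane supply *ATG41* alone was called. Atg9 is the membrane protein of the vesicles that seed the phagophore, Atg23 and Atg27 help to form these vesicles, and Atg2 moves lipid into the growing membrane. *ATG9*, *ATG2*, *ATG23* and *ATG27* had differences of 0.03, 0.02, −0.04 and −0.07, with standard errors of 0.10 to 0.14, so that 0 of these 4 passed and each lay within its error of 0. *ATG27*, the lowest, had signals of 10.71, 10.68 and 10.76 with neomycin and 10.89, 10.80 and 10.67 in untreated cells. Set against the median of these 4 genes on the same array, *ATG41* stood 2.10, 2.43 and 2.38 higher on the neomycin arrays and 1.35, 0.69 and 0.52 higher on the untreated arrays. The distance was 1.45 larger with neomycin, where *ATG41* itself differed by 1.47.

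Genes that make or read PI3P gave values near 0. Atg14 and Atg38 are subunits of the kinase complex that makes this lipid at the phagophore, Atg18 and Atg21 bind it, and Atg20 is a sorting nexin. Of the 5 genes 0 were called, and their median was 0.07, running from 0.024 to 0.097 with each array left out in turn. *ATG20* had the highest value, with signals of 7.60, 8.15 and 7.90 on the neomycin arrays and 7.86, 7.37 and 7.65 on the untreated arrays (0.26, SE 0.18). *ATG14* had the lowest, with 5.93, 6.49 and 6.48 against 6.39, 6.57 and 6.30 (−0.12, SE 0.17). The groups overlapped in both genes. *ATG38*, *ATG21* and *ATG18* had differences of 0.19, 0.07 and −0.03.

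The 8 genes of conjugation encode Atg8 and Atg12, the enzymes that attach them and the conjugate they form. Atg7 activates both proteins, Atg3 transfers Atg8 and Atg10 transfers Atg12, Atg4 trims Atg8 and frees it again, and Atg12 joined to Atg5 works with Atg16 at the membrane. *ATG8* alone was called, and 4 of the 8 had values above 0, with a median of −0.0030 that ran from −0.13 to 0.12 with each array left out in turn. *ATG5* came next after *ATG8*, with signals of 8.76, 8.89 and 9.45 on the neomycin arrays and 8.68, 8.64 and 8.76 on the untreated arrays. Its difference of 0.34 (SE 0.18, limma adjusted p = 0.463) came mostly from neomycin replicate 3, and it was 0.13 without that array.

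*ATG7*, *ATG3*, *ATG12* and *ATG10*, the genes of Atg12 and the transfer enzymes, had differences of 0.07, 0.02, −0.08 and −0.15. *ATG4* was the lowest, with signals of 5.30, 6.53 and 6.0 with neomycin against 6.15, 6.05 and 6.07 in untreated cells. Its neomycin arrays lay on both sides of the untreated ones (−0.15, SE 0.27). *ATG16* gave means of 3.47 ± 0.38 with neomycin and 3.50 ± 0.12 in untreated cells (SD, n = 3 each), under the background mark, so that a change in it could not be read. Relative to the median of the other 7 genes of conjugation on the same array, *ATG8* stood 1.64, 1.55 and 1.75 higher on the neomycin arrays and 0.66, 0.93 and 0.95 higher on the untreated arrays, a distance larger by 0.80 with neomycin.

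Selective autophagy uses receptors that tie a given cargo to Atg8 and to the scaffold protein Atg11. The list held 8 measured genes, of which 0 were called and 6 had values above 0, with a median of 0.10, which was 0.040 when neomycin replicate 2 was left out and stood at 0.17 when replicate 1 was. *ATG34* and *ATG19* encode related receptors, for α-mannosidase under starvation and for the precursor of aminopeptidase I in growing cells. *ATG34* was the highest of the list, with signals of 8.23, 8.22 and 8.52 on the neomycin arrays and 7.83, 8.22 and 8.03 on the untreated arrays, which meet at 8.22 (0.30, SE 0.14, limma adjusted p = 0.408). *ATG19* had 9.44, 9.48 and 9.35 against 9.21, 9.42 and 9.01 (0.21, SE 0.13).

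Genes for the removal of organelles had differences from −0.18 (*ATG40*) to 0.19 (*ATG33*). Atg32 and Atg33 serve the removal of mitochondria, Atg36 that of peroxisomes, and Atg39 and Atg40 that of the endoplasmic reticulum. *ATG33* had signals of 9.41, 9.34 and 9.21 with neomycin and 9.10, 9.19 and 9.10 in untreated cells, higher by 0.19 (SE 0.10, limma adjusted p = 0.477) with no overlap. *ATG32* had the smallest spread of all members, with 7.89, 7.92 and 7.86 against 7.87, 7.83 and 7.89, a difference of 0.03 (95% interval −0.18 to 0.24). *ATG36* had a difference of 0.17 (SE 0.12).

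The endoplasmic reticulum receptors had values of 0.01 (SE 0.31) for *ATG39* and −0.18 (SE 0.16) for *ATG40*. *ATG40*, the lowest of the list, had signals of 7.93, 7.65 and 8.17 on the neomycin arrays and 8.14, 8.25 and 7.91 on the untreated arrays, which overlap. *ATG39* was among the most scattered members, with 5.45, 6.64 and 6.41 against 5.75, 6.29 and 6.42. *ATG11* had a difference of −0.13 (SE 0.13).

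In the vacuole, Atg15 is the lipase that opens autophagic bodies and Atg22 exports amino acids freed by breakdown. *ATG22* had signals of 8.82, 9.14 and 8.76 with neomycin and 9.22, 8.60 and 8.60 in untreated cells (0.10, SE 0.19). *ATG15* had 4.72, 5.57 and 4.90 against 5.43, 5.06 and 5.07 (−0.12, SE 0.22), close to background. Both pairs of groups overlapped. *ATG26*, a sterol glucosyltransferase whose part in the removal of peroxisomes is known from the methylotrophic yeast *Komagataella*, belongs to none of these steps and had a difference of 0.13 (SE 0.14).

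The *ATG* genes as a whole stood at different levels on the 3 neomycin arrays. The median of the 34 genes relative to the untreated means was −0.05 on neomycin replicate 1, 0.24 on replicate 2 and 0.05 on replicate 3, against −0.0048, 0.06 and −0.07 on the untreated arrays. Of the 34 genes 18 had their highest signal of the 6 arrays on neomycin replicate 2, where 27.5% of all genes did. The lowest signal fell on neomycin replicate 1 for 10 of the 34, close to the 32.9% of all genes. It fell on untreated replicate 3 for 11 of the 34, against 12% of all genes. The medians of all genes on the neomycin arrays were −0.11, 0.03 and −0.05, in the same order of arrays.

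Among the 3 neomycin arrays, replicate 2 had the highest and replicate 1 the lowest median in both dim and brighter *ATG* genes. Of the 34 genes 19 belonged to the 1363 genes with the lowest mean signal, and their medians were −0.13, 0.31 and 0.04 on neomycin replicates 1, 2 and 3. All 1363 of these dim genes had medians of −0.19, 0.09 and −0.03 on these arrays. The 15 brighter *ATG* genes had medians of 0.01, 0.19 and 0.08, against −0.10, 0.01 and −0.05 for the 4086 other genes. The part of signal level in the array medians was not tested.

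**Figure D4:**
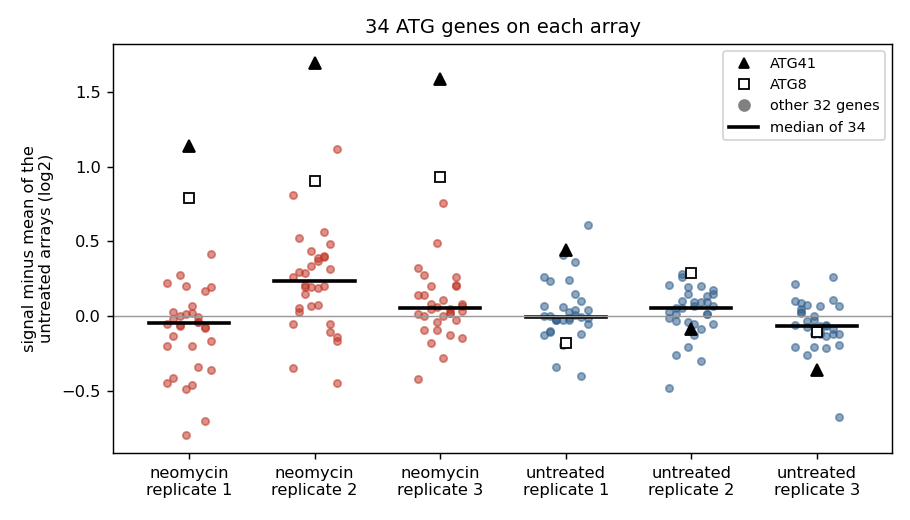
Signal of each of the 34 *ATG* genes on each array minus the gene's mean over the untreated arrays (log2), with a bar for the median of the 34 genes on that array. *ATG41* and *ATG8* lie at 0.79 or more on all 3 neomycin arrays, while the median runs from −0.05 to 0.24 on the neomycin arrays and from −0.07 to 0.06 on the untreated arrays.

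Genes of the pathway that do not carry an *ATG* symbol were followed in 5 lists. Of the 53 listed symbols 49 had a probe set. Of the other 4, *LAP4* is an older name of *APE1* and *UGT51* another name of *ATG26*, and *SEA2* and *SEA3* were not matched. Limma called 0 of the 49 (0.514% of all genes), while 4 had an unadjusted limma p under 0.05 (13.4% of all genes). By the study's criteria 1 was induced (1.45% of all genes). Their median difference was 0.0014, against −0.05 over all genes, and 25 of them (51%) lay above 0, against 37.9% of all genes. Without overlap, 4 were higher (*PRB1*, *PEP4*, *GAT1*, *TAP42*) and 5 lower (*VPS30*, *VAM3*, *SEH1*, *RPD3*, *SNF1*). This was 18.4% of the 49, the same share as over all genes.

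Among the vacuolar proteases, which break down what autophagy delivers, *PRB1*, the gene of proteinase B, had signals of 9.81, 10.32 and 10.09 on the neomycin arrays and 9.23, 9.38 and 9.31 on the untreated arrays. These do not overlap, and the ratio of means was 1.72, which passed the study's criteria (difference 0.77, SE 0.14, limma adjusted p = 0.0631). The study also lists *PRB1* as induced. With quantile normalization, with centred arrays, without the 1363 dimmest genes, with an intensity trend or without neomycin replicate 1 the limma adjusted p of *PRB1* was 0.0368, 0.0364, 0.0352, 0.0327 and 0.0122. In these 5 settings limma called 50, 42, 40, 48 and 119 genes of the whole array higher, against 23 in the fit reported above. It called 5, 7, 7, 14 and 23 lower, against 5. Without any 1 of the other 5 arrays the limma adjusted p of *PRB1* lay between 0.150 and 0.256. *PEP4*, the gene of proteinase A, had 12.55, 12.74 and 12.74 against 12.21, 12.51 and 12.49 (0.27, SE 0.12, limma adjusted p = 0.385), without overlap. *PRC1*, the gene of carboxypeptidase Y, had a difference of −0.06 (SE 0.093).

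Of the 15 regulators of *ATG* transcripts, 0 were called. *GAT1*, a GATA factor that activates genes of nitrogen use and several *ATG* genes, had signals of 8.85, 9.10 and 9.09 with neomycin and 8.17, 8.46 and 8.26 in untreated cells, a ratio of 1.64 (0.71, SE 0.12, limma adjusted p = 0.0536). Its groups did not overlap. Its limma adjusted p was 0.0359, 0.0341, 0.0292, 0.0389 and 0.0234 under the same 5 settings in which *PRB1* passed. Each of these settings gave more calls over the whole array than the fit reported above. The limma adjusted p of *GAT1* was between 0.116 and 0.227 without any 1 of the other 5 arrays. Its partner *GLN3* had a difference of 0.31 (SE 0.14, limma adjusted p = 0.385).

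The other regulators moved less. *UME6*, the repressor that holds down *ATG8* in growing cells together with Sin3 and Rpd3, had signals of 9.16, 8.98 and 9.33 with neomycin and 8.46, 9.05 and 9.07 in untreated cells, which overlap (0.30, SE 0.18). *RPH1*, the gene of a repressor of several *ATG* genes, had a difference of 0.06 (SE 0.14). *GCN4*, an activator of *ATG41* that is controlled mainly at translation, which these arrays do not measure, had signals of 12.84, 12.88 and 12.94 against 12.75, 12.93 and 12.85 (0.04, SE 0.10). *SPT10*, the gene of a regulator of histone genes, had the lowest value of the list (−0.29, SE 0.17), and *SNF1*, the gene of the energy-sensing kinase, was lower without overlap, with 9.67, 9.76 and 9.51 against 9.95, 9.98 and 9.78 (−0.26, SE 0.11, limma adjusted p = 0.373).

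Of the 14 genes of the machinery under other names, 0 were called and the median was −0.04. *VAM7*, the gene of a SNARE of vacuole fusion, had the highest value, with 6.18, 6.40 and 6.28 on the neomycin arrays and 4.95, 6.19 and 5.64 on the untreated arrays. They overlap narrowly, the untreated arrays being spread over more than 1 log2 unit (0.69, SE 0.27, limma adjusted p = 0.345). *VPS30*, which encodes the subunit of the PI3P kinase complex also called Atg6, had the lowest, with 7.89, 8.01 and 7.87 against 8.10, 8.09 and 8.12 (−0.18, SE 0.095, limma adjusted p = 0.477), without overlap.

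Cargo and TORC1 genes stayed within narrower limits. Among 4 genes of cargo, *APE1*, the aminopeptidase I carried by Atg19, had the highest difference (0.26, SE 0.12) and *LAP3*, a cysteine aminopeptidase, the lowest (−0.16, SE 0.12), and 0 were called. Of 13 genes of TORC1 and its regulators 0 were called, between *NPR1*, a kinase under TORC1 (0.25, SE 0.16), and *SEH1*, a subunit of the SEA complex that also belongs to the nuclear pore (−0.16, SE 0.10).

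**Figure D5:**
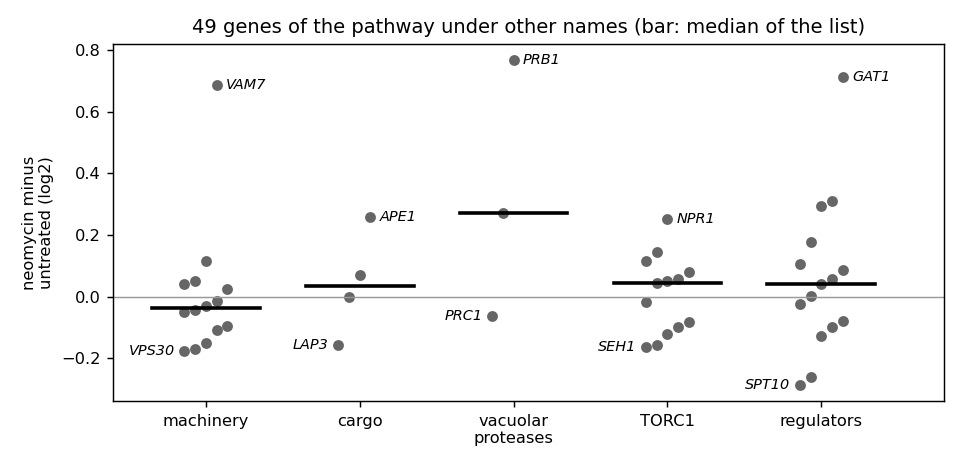
Difference between neomycin and untreated arrays (log2) for the 49 measured genes of the pathway that do not carry an *ATG* symbol, in 5 lists, with 1 point per gene and a bar for the list's median. The highest and the lowest gene of each list are named, and *PRB1*, *GAT1* and *VAM7*, at 0.77, 0.71 and 0.69, stand apart from the rest, none with an adjusted p under 0.05.

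Of 7 genes of the general stress response, which also mark cells leaving exponential growth, 1 was called, against 0.514% of all genes. It was *DDR2* (1.36, SE 0.17, limma adjusted p = 0.0401). Values above 0 were found for 5 of the 7, against 37.9% of all genes. *HSP12*, *DDR2*, *CTT1* and *GRE1* had neomycin arrays above the untreated arrays without overlap, as 5.58% of all genes did. The array means over all 7 genes were 8.38 to 9.0 with neomycin and 8.02 to 8.11 in untreated cells. *SSA3* and *HSP26* had differences of −0.11 and −0.20. The part of this response, or of growth phase, in the values of *ATG41* and *ATG8* was not tested.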

How the data were processed

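The authors extracted total RNA from each culture with a commercial kit, hybridized it to Affymetrix Yeast Genome 2.0 arrays and converted the intensities with GCRMA, which adjusts background, normalizes between arrays and summarizes probes. No version is named in the sources used here. The deposited values are log2 signals from 2.22 to 14.31 for 5716 probe sets. The number of arrays, 6, limits the precision.

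Of the probe sets 5498 name 1 gene, 0 several and 218 none in the platform annotation. For 47 genes with several probe sets, none of them an *ATG* gene, the one with the highest mean was taken, which left 5449 genes. Neomycin and untreated arrays were compared by limma's lmFit and eBayes (version 3.58.1, under R 4.3.3), 2-sided, with Benjamini-Hochberg adjustment over all 5449 genes and a threshold of 0.05. The fit was tested on simulated data. Cyber-T was rebuilt with a window of 101 genes and a confidence of 10, which the methods do not state. The labels call the samples biological replicates.

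All *ATG* genes are accounted for. Named with values on every array are *ATG8*, *ATG41* and the highest and lowest member of each step, and other genes so described were added after their values were seen. Pathway genes are the highest and lowest of each list, and *PEP4*, *GLN3*, *UME6*, *RPH1*, *GCN4* and *SNF1* were added in the same way. *TAP42*, *VAM3* and *RPD3* are named only for the absence of overlap. The members and lists were chosen with earlier results of these data known. Alternatives were a replicate block, quantile normalization, centring, a filter on dim genes, other uses of probe sets, an intensity trend, a robust prior, leaving out each array, an adjusted p under 0.1 and the study's criteria. Promoters and proteins were not analysed here.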

Additional observations from a re-analysis of the deposited data

How the results depend on the processing

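*ATG41* and *ATG8* remained the called *ATG* genes with quantile normalization, centred arrays, the 1363 dimmest genes left out, averaged probe sets per gene, every probe set fitted, an intensity trend, a robust prior, an adjusted p under 0.1, the study's criteria and neomycin replicate 1 left out. With the replicate number as a block 0 of 34 were called, the differences staying at 1.47 for *ATG41* (limma adjusted p = 0.142) and 0.87 for *ATG8* (limma adjusted p = 0.114), and 0 genes of the whole array passed. The labels do not say whether same-numbered cultures were handled together. Same-numbered arrays deviated from their group means with correlations of −0.00030, −0.38 and 0.44 for replicates 1, 2 and 3. Of the 6 arrays 2 correlated best with their own number. With 3 arrays per condition these values cannot decide whether the arrays are paired. Without each array in turn the count of called *ATG* genes ran from 0 to 2, that of genes without overlap from 7 to 9, the median difference from 0.0072 to 0.14, *ATG41* from 1.29 to 1.69 and *ATG8* from 0.78 to 1.02. Fewer arrays make the absence of overlap easier, and in these fits 23.2% to 35.4% of all genes did not overlap. The median was 0.11 without the dimmest genes, which keeps 15 of the 34 genes. With centred arrays 7 *ATG* genes were without overlap, all higher, where 8.75% of all genes were higher in this way.

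Of the pathway genes under other names, 2, *PRB1* and *GAT1*, were called with quantile normalization, centred arrays, the 1363 dimmest genes left out, an intensity trend, an adjusted p under 0.1 and without neomycin replicate 1. By the study's criteria 1 was induced, as 1.45% of all genes were. Apart from the looser threshold, these settings called 40 to 119 genes of the whole array higher, against 23 in the fit reported above. They called 5 to 23 lower, against 5. Without each array in turn the count of called pathway genes ran from 0 to 2. With the replicate block the limma adjusted p was 0.128 for *PRB1* and 0.127 for *GAT1*.

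With centred arrays *ATG16* and *ATG18* changed sign, to 0.014 and 0.0051. Leaving out single arrays gave a sign change in genes near 0, none of them called in any fit: *ATG2* ran from −0.11 to 0.10, *ATG3* from −0.12 to 0.16, *ATG4* from −0.44 to 0.17, *ATG7* from −0.032 to 0.17, *ATG9* from −0.066 to 0.078, *ATG12* from −0.19 to 0.085, *ATG13* from −0.058 to 0.24, *ATG14* from −0.21 to 0.064, *ATG15* from −0.37 to 0.055, *ATG16* from −0.23 to 0.14, *ATG18* from −0.14 to 0.055, *ATG22* from −0.014 to 0.31, *ATG23* from −0.10 to 0.038, *ATG26* from −0.0094 to 0.21, *ATG39* from −0.22 to 0.37, *GCN4* from −0.0063 to 0.085 and *RPH1* from −0.045 to 0.16. The cause was not tested.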
